A study of Mus musculus with 6 samples.

Results

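The Notch pathway was followed through 10 genes, taken by symbol from the 25491 genes of the deposited count table: the receptors Notch1, Notch2, Notch3 and Notch4, the ligands Jag1, Jag2, Dll1 and Dll4, and the target genes Hes1 and Hey1. All 10 were found, and 8 of them held enough counts to be among the 14465 genes tested. Jag2 and Dll4 did not pass the filter on low counts and are given by their counts. RNA was measured in mesenchymal progenitor cells of mouse bone marrow, stromal cells that give rise to bone, cartilage and fat and support blood formation. There were 3 libraries from Lama4-/- mice and 3 from wild type mice. Both genotypes were C57BL/6J, aged 14 weeks, and both had received a sublethal dose of 7 Gy of radiation 6 weeks before. Lama4 encodes laminin alpha 4, a chain of laminins found in basement membranes. The cells were sorted fresh as CD45-, TER119-, CD31-, CD44-, CD51+ and SCA1-. The labels do not say whether a library came from 1 mouse or from a pool, so the p-values below measure the spread between these libraries, which may be technical.

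Notch signalling passes between cells in contact. A Jagged or Delta-like ligand on one cell binds a Notch receptor on its neighbour, the receptor is cut by an ADAM protease and then by the gamma-secretase complex, and the freed intracellular part enters the nucleus, where it joins the DNA-binding protein RBPJ and a Mastermind coactivator to switch on genes such as Hes1 and Hey1. In the skeleton and the marrow the pathway is known for restraining osteoblast differentiation and keeping mesenchymal progenitors undifferentiated, and Jagged ligands on stromal cells have been studied as signals to blood stem cells.

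In the Lama4-/- libraries the mean levels of Notch1, Notch2, Notch3 and Jag1 were between 2.38-fold and 2.93-fold lower than in wild type, while Hes1 and Hey1 averaged 155.6 and 22.5 CPM in Lama4-/- against 145.1 and 20.6 CPM in wild type, with groups that overlapped. Of the 8 members tested, 0 had an adjusted p under 0.05 in edgeR's quasi-likelihood test, where 1 gene in the table did, the deleted Lama4 (0.00691% of those tested). Notch2 and Notch3 had an unadjusted p under 0.05, 2 of the 8 and both lower in Lama4-/-, and limma voom put 3 there (16.3% of all tested genes in either direction). Without wild type replicate 1, and likewise without wild type replicate 2, 1 member had such a p in edgeR. Of all tested genes 12.8% had such a p, 8.34% lower and 4.45% higher in Lama4-/-. The split of all genes depends on the scaling, with 1207 lower and 644 higher as reported, 967 lower and 988 higher with upper-quartile scaling, and 457 lower and 716 higher with a trend in transcript length removed. In Notch2, Notch3 and Jag1 every Lama4-/- library lay below every wild type library, 3 of 8, against 12% of all tested genes. The receptors are encoded by long transcripts, and in these libraries long transcripts as a class were lower in Lama4-/-, so the members' log2 fold changes are also given with that trend removed. DESeq2 called Notch2 alone of the members it adjusted (adjusted p = 0.0180), where it called 4.64% of the genes it adjusted (3.56% lower in Lama4-/-). It gave no adjusted p for Dll4.

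Library totals ran from 12979711 to 15663957 counts in Lama4-/- and from 6263830 to 13409177 in wild type. Lama4 had 0 counts in each Lama4-/- library and 1281 counts over the wild type libraries, which with a floor of 3 counts over the group is a level at least 580.4-fold lower in Lama4-/- mice (adjusted p = 0.0497, quasi-likelihood test of edgeR). That adjusted p was above 0.05 when any single library other than Lama4-/- replicate 3 was left out. Among the genes of the sort, Itgav (CD51) was at 44.5 to 73.05 CPM in Lama4-/- and 95.9 to 139 CPM in wild type, and Ly6a (SCA1) at 8.64 to 11.8 and 8.90 to 16.3 CPM. Cd44, whose protein was sorted against, was at 53.2 to 81.98 CPM in Lama4-/- and 70.6 to 152 CPM in wild type, while Ptprc (CD45) and Pecam1 (CD31) stayed at 4.09 CPM or less in all libraries. The lineage markers were abundant: Col1a1 was at 19637 to 69810 CPM in Lama4-/- and 31851 to 45028 CPM in wild type, and Cxcl12 at 3701 to 6095 and 3866 to 10051 CPM. The 6 red cell markers summed to 1349 to 3864 CPM in Lama4-/- and 252 to 1665 CPM in wild type, and Hbb-bs and Hba-a1 led them. All 6 were higher in Lama4-/-, 4 with an unadjusted p under 0.05 (edgeR), where 4.45% of all tested genes were. Their median log2 fold change was 1.68. With the length trend removed it was 1.32, and 1 of the 6 was higher at that p. The 9 genes of LEPR-positive stroma summed to 4675 to 7306 CPM in Lama4-/- and 5172 to 11604 CPM in wild type, and 5 of the 9 were lower with an unadjusted p under 0.05 (edgeR), where 8.34% of all tested genes were. With the length trend removed 2 were lower and 1 higher, and the median log2 fold change of the 9 was -0.13 in place of -0.67; the part of such cell composition in the Notch values was not tested. CPM are counts per 1e6 of the TMM-adjusted library total. In bulk RNA, fewer cells that express a gene and less RNA in each of them cannot be told apart.

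**Figure D1:**
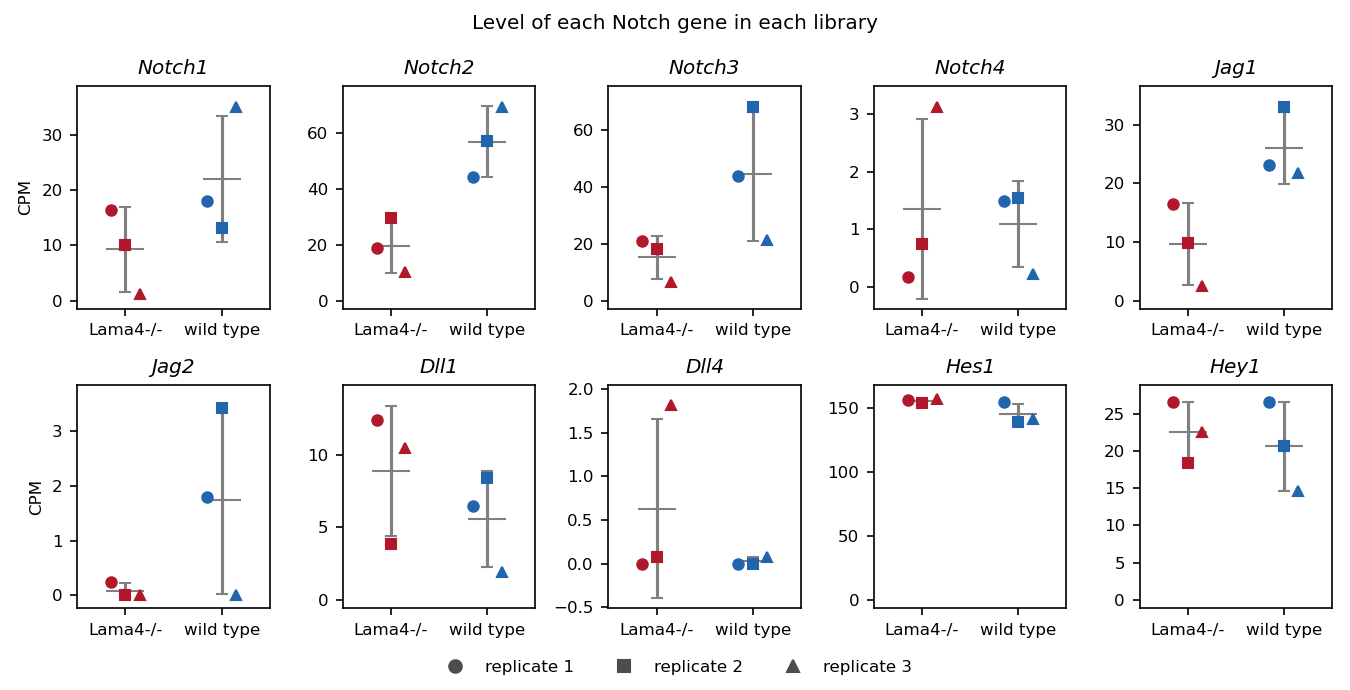
CPM of each of the 10 Notch genes, 1 panel a gene on a linear axis of its own, in 3 Lama4-/- libraries (left, red) and 3 wild type libraries (right, blue). Points are libraries with a shape for each replicate number, and grey bars are the mean ± SD; the red points lie below the blue ones in Notch2, Notch3 and Jag1, and Lama4-/- replicate 3 is the lowest in Notch1, Notch2, Notch3 and Jag1.

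Among the receptors, Notch2 (chromosome 3, 98013527 to 98150361, plus strand, GRCm38) was the most abundant in CPM. It was at 18.8, 29.6 and 10.2 CPM in Lama4-/- replicates 1, 2 and 3, against 44.3, 57.4 and 69.5 CPM in wild type replicates 1, 2 and 3. The groups did not overlap, and the means were 19.5 ± 9.68 CPM in Lama4-/- and 57.1 ± 12.6 CPM in wild type (SD, n = 3 each). The log2 fold change was -1.55 (SE 0.41, 95% interval -2.51 to -0.58), with an unadjusted p of 0.00650 and an adjusted p of 0.238 (edgeR quasi-likelihood test). The authors' deposited table lists Notch2 with a shrunken log2 fold change of -1.33 and an adjusted p of 0.0146, where 6.63% of its adjusted genes were under 0.05. With the length trend removed the log2 fold change was -0.50 (interval -1.41 to 0.40).

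Notch3 (chromosome 17, 32120820 to 32166852, minus strand), the receptor known for its role in pericytes and vascular smooth muscle, was at 20.9, 17.98 and 6.61 CPM in Lama4-/- replicates 1, 2 and 3, against 43.98, 68.2 and 21.3 CPM in wild type replicates 1, 2 and 3. The groups did not overlap but came close, since wild type replicate 3 lay just above Lama4-/- replicate 1. Its log2 fold change was -1.55 (SE 0.56, interval -2.85 to -0.24; edgeR adjusted p = 0.328), and -0.74 (interval -2.11 to 0.63) with the length trend removed. Without wild type replicate 2 it was -1.10. Markers of pericytes and smooth muscle were counted in the same libraries. Their 8 genes summed to 193, 103 and 30.7 CPM in Lama4-/- replicates 1, 2 and 3, against 144, 102 and 120.2 CPM in wild type. Rgs5, a pericyte regulator of G protein signalling, was at 16.7, 10.2 and 1.38 CPM in Lama4-/- against 67.2, 34.4 and 22.4 CPM in wild type, while smooth muscle actin (Acta2) was at 107, 61.2 and 17.1 against 37.7, 31.7 and 61.8 CPM. Of the 8 genes, 3 were lower and 5 higher in Lama4-/-, and 1 was lower with an unadjusted p under 0.05. The lowest sum, Rgs5 level and Acta2 level were all in Lama4-/- replicate 3, which was also the lowest library for Notch3; the part of such cells in the Notch3 values was not tested.

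Notch1 (chromosome 2, 26457903 to 26516663, minus strand) was spread widely within each genotype. It was at 16.4, 10.1 and 1.23 CPM in Lama4-/- replicates 1, 2 and 3, against 18.02, 13.2 and 34.95 CPM in wild type replicates 1, 2 and 3. The groups overlapped, and the lowest value rests on 17 counts in Lama4-/- replicate 3. The log2 fold change was -1.25 (SE 0.83, interval -3.20 to 0.69; edgeR adjusted p = 0.594). It was -0.74 without Lama4-/- replicate 3, -0.75 without wild type replicate 3, and -0.20 with the length trend removed. Overlapping genes limit these values. The exons of Notch2 share 541 bases with Gm42820 on the same strand, which held 0, 8 and 0 counts in Lama4-/- and 8, 9 and 66 in wild type. The exons of Notch1 share 1068 bases with 0610009E02Rik on the other strand, which held 9, 5 and 33 counts in Lama4-/- and 1, 4 and 12 in wild type. They also share 414 bases with Gm13568, and the exons of Notch3 share 488 bases with Gm17276, both on the other strand. The library kit does not mark strand, so reads of stretches shared with the other strand cannot be assigned to either gene. For Gm42820, on the same strand as Notch2, strand would not tell them apart.

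Notch4, a receptor known mainly from endothelial cells, was near the limit of detection (chromosome 17, 34564268 to 34588503, plus strand). It had 3, 10 and 43 counts in Lama4-/- replicates 1, 2 and 3, against 20, 9 and 3 counts in wild type replicates 1, 2 and 3. The groups overlapped entirely, and the log2 fold change of 0.32 (SE 1.33, interval -2.78 to 3.41; edgeR adjusted p = 0.948) turned to -1.21 without Lama4-/- replicate 3. Once the length trend was taken out it was 1.08 (interval -2.11 to 4.28). The 9 endothelial markers in the table summed to 4.92, 4.74 and 3.41 CPM in Lama4-/- and 8.002, 8.90 and 11.6 CPM in wild type. Of these 9 markers, 5, 6 and 5 were at 0 counts in Lama4-/- replicates 1, 2 and 3, and 1, 4 and 4 in wild type replicates 1, 2 and 3. The 2 most abundant were Esam, at 64, 20 and 0 counts in Lama4-/- against 6, 8 and 0 in wild type, and Erg, at 16, 33 and 36 against 27, 17 and 59. Pecam1 went the other way from Esam, at 1, 10 and 2 counts in Lama4-/- against 23, 12 and 18 in wild type. So did Cdh5, at 0, 0 and 0 against 12, 2 and 29, and Kdr, at 1, 0 and 0 against 1, 13 and 21. Tek and Tie1 had 0 counts in each Lama4-/- library, against 22, 0 and 0 and 12, 0 and 23 in wild type. Flt4 had 0, 0 and 1 against 4, 0 and 0. Cldn5 was higher in Lama4-/-, like Esam, at 0, 0 and 8 against 0, 0 and 0. Of the 3 endothelial markers tested, 2 were lower and 1 higher in Lama4-/-, and 0 had an unadjusted p under 0.05 (edgeR). The part of such cells in the Notch4 values was not tested.

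The promoters of the members whose groups did not overlap are shown, so that the sequences before the start sites of these 3 genes can be compared. The windows run from 250 bases before to 50 bases after the RefSeq start site on the gene's strand (GRCm38.p6), and capitals mark GGGCGG, the GC box bound by SP1-type factors, on either strand.
Notch2, chr3:98013288-98013587, plus strand: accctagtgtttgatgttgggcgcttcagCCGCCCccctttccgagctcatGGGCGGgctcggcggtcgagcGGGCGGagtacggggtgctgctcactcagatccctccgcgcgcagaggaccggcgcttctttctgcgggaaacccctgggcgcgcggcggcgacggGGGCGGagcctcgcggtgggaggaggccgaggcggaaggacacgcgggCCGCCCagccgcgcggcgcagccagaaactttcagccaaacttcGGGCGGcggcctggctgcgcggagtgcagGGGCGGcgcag
Notch3, chr17:32166841-32167140, minus strand: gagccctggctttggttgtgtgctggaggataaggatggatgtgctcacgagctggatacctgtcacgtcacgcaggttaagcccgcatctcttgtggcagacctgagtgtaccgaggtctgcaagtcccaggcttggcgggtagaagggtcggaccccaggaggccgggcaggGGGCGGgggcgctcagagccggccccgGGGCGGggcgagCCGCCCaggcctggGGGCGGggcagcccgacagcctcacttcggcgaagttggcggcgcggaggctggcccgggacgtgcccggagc
Jag1, chr2:137116471-137116770, minus strand: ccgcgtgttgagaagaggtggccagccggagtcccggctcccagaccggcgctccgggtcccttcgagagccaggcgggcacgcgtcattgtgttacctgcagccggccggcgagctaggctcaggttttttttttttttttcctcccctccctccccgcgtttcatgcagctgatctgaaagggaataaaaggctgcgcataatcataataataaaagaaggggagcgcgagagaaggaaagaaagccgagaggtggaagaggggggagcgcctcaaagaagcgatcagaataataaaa
The Notch2 window held 7 matches and the Notch3 window 4, counting every match on both strands, and the Jag1 window 0. GGGCGG was in 5 of the 9 windows given for the 8 receptors and ligands. Those include Notch1, whose groups overlapped, with 5 matches, Jag2 with 5 and Dll4 with 2. GC content was 73.0% in Notch2, 70.0% in Notch3 and 55.7% in Jag1, beside a median of 52.7% over the 32851 promoters of the RefSeq table, of which 35.7% held GGGCGG. The core of the RBPJ motif, TGGGAA on either strand, was in 0 of the 9 windows given for the 8 receptors and ligands, and in 25.6% of all windows. The target genes Hes1 and Hey1 had no window there, so their promoters were not searched. A match is a run of letters and not a shown binding site, and no match says only that these letters are not in the window.

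Jag1 was the most abundant ligand in CPM (chromosome 2, 137081456 to 137116644, minus strand). It encodes Jagged 1, a ligand studied in bone and in marrow stroma. It was at 16.6, 9.78 and 2.54 CPM in Lama4-/- replicates 1, 2 and 3, against 23.2, 33.05 and 21.8 CPM in wild type replicates 1, 2 and 3. The groups did not overlap, and the means were 9.63 ± 7.01 CPM in Lama4-/- and 25.997 ± 6.15 CPM in wild type (SD, n = 3 each). The log2 fold change was -1.43 (SE 0.63, interval -2.90 to 0.05; edgeR adjusted p = 0.404), and it ranged from -2.06 to -0.98 with each library left out. With the length trend removed it was -0.86 (interval -2.30 to 0.58).

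Dll1, a Delta-like ligand (chromosome 17, 15367354 to 15376872, minus strand), was at 12.4, 3.84 and 10.5 CPM in Lama4-/- replicates 1, 2 and 3, against 6.43, 8.39 and 1.93 CPM in wild type replicates 1, 2 and 3. The groups overlapped, with the 2 highest libraries both Lama4-/- and the lowest 1 wild type. For Dll1 the log2 fold change was 0.68 (SE 0.73, interval -1.04 to 2.39; edgeR adjusted p = 0.763), or 0.86 once the length trend was taken out. Its exons share 867 bases with the noncoding gene A930024N18Rik on the other strand.

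Jag2 and Dll4 were detected in some libraries only. Jag2, the second Jagged ligand, had 4, 0 and 0 counts in Lama4-/- replicates 1, 2 and 3, against 24, 20 and 0 counts in wild type replicates 1, 2 and 3. Dll4, a ligand known from endothelial tip cells and from the stroma that instructs T cell progenitors, had 0, 1 and 25 counts in Lama4-/- replicates 1, 2 and 3, against 0, 0 and 1 counts in wild type. Nearly all Dll4 counts were thus in Lama4-/- replicate 3, the library that also held most Notch4. A count of 0 allows up to 3 counts, which is 0.180 to 0.226 CPM in the Lama4-/- libraries and 0.224 to 0.514 CPM in the wild type libraries; such floors and intervals cover counting error only.

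Hes1, the transcriptional repressor that is the best known direct target of Notch, was by far the most abundant member and the least variable (chromosome 16, 30064384 to 30067796, plus strand). It was at 155.99, 153.7 and 157.1 CPM in Lama4-/- replicates 1, 2 and 3, against 154.4, 139.4 and 141.4 CPM in wild type replicates 1, 2 and 3. The groups overlapped, and the highest library was 1.13-fold above the lowest, where the same ratio was 6.79 in Notch2 and 28.3 in Notch1. Its log2 fold change was 0.10 (SE 0.16, interval -0.28 to 0.48; edgeR adjusted p = 0.853). With the length trend removed it was -0.19 (interval -0.54 to 0.15), so the direction depends on that choice and both intervals include 0.

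Hey1 encodes a related repressor that Notch induces in vessels and bone (chromosome 3, 8663359 to 8667256, minus strand). It was at 26.5, 18.4 and 22.5 CPM in Lama4-/- replicates 1, 2 and 3, against 26.5, 20.7 and 14.6 CPM in wild type replicates 1, 2 and 3, and the groups overlapped. For Hey1 the log2 fold change was 0.13 (SE 0.34, interval -0.66 to 0.91; edgeR adjusted p = 0.921), or -0.0027 once the length trend was taken out.

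**Figure D2:**
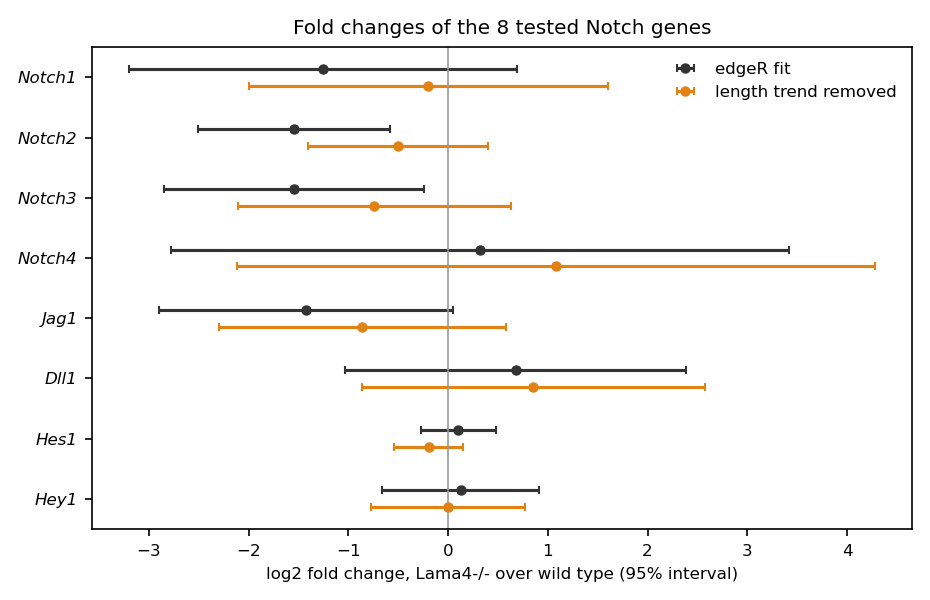
Log2 fold change of Lama4-/- over wild type with its 95% interval for the 8 tested Notch genes, in the edgeR fit (black) and with the length trend removed (orange). The black intervals of Notch2 and Notch3 lie below 0, and with the length trend removed all 8 intervals include 0.

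The members differ in transcript length, and so did the fold changes of all genes. Across 14463 tested genes with an annotated length, fold change and length had a Spearman's rho of -0.46, and of 0.017 after the trend was removed; this describes genes, which are not independent replicates. Notch1, Notch2 and Notch3, with longest annotated transcripts of 9488, 10500 and 8016 bases, fall in the longest of 10 length classes of equal size, where the median log2 fold change was -0.92 and 34.2% of genes were lower with an unadjusted p under 0.05. Jag1, at 5612 bases, and Notch4, at 6591, fall in the class next to it, with a median of -0.58. Hes1, at 1468 bases, and Hey1, at 2423, fall among short transcripts, in classes with medians of 0.34 and 0.15. Dll1, at 3581 bases, lay above its class, whose median was -0.08. With the trend removed, 0 of the 8 members had an unadjusted p under 0.05 (edgeR), where 3.16% of all tested genes did on the lower side. The median over the 8 members was -0.58 before and -0.20 after removal, beside -0.04 and 0.02 over all tested genes.

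**Figure D3:**
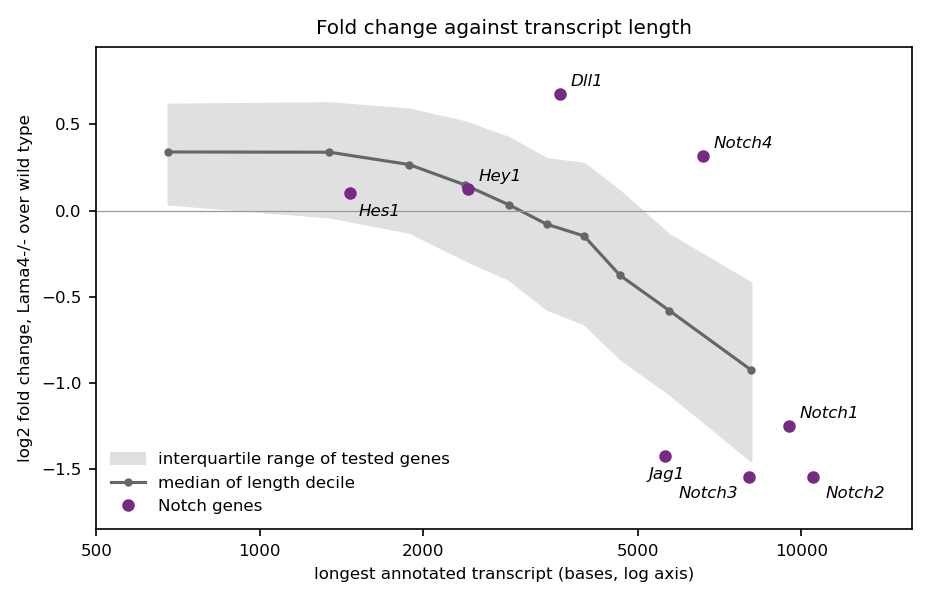
Log2 fold change of Lama4-/- over wild type against the longest annotated transcript (bases, log axis). The grey line joins the medians of the 10 length classes of all tested genes with their interquartile range, and purple points are the 8 tested Notch genes. Notch3, Jag1 and Hes1 lie below the line, Dll1 and Notch4 above it and Hey1 close to it. Notch1 and Notch2 lie past the long end of the line, below its last median.

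Per kilobase of transcript, the members' levels can be set in order within each genotype. The length trend was not removed from these levels or from the sums below. Long transcripts as a class were lower in Lama4-/-, so shifts in order between long and short members cannot be told apart from that trend. In Lama4-/- it was Hes1 at 105.97 ± 1.19, Hey1 at 9.28 ± 1.67, Dll1 at 2.48 ± 1.25, Notch3 at 1.89 ± 0.944, Notch2 at 1.86 ± 0.922, Jag1 at 1.72 ± 1.25 and Notch1 at 0.975 ± 0.805 CPM per kb (mean ± SD, n = 3). In wild type it was Hes1 at 98.8 ± 5.53, Hey1 at 8.51 ± 2.47, Notch3 at 5.55 ± 2.92, Notch2 at 5.44 ± 1.20, Jag1 at 4.63 ± 1.10, Notch1 at 2.32 ± 1.20 and Dll1 at 1.56 ± 0.925 CPM per kb. Notch4, Jag2 and Dll4 were below 0.35 CPM per kb in both groups. Hes1 and Hey1 stood above the rest in both genotypes, whereas Notch3, Notch2 and Jag1 lay within 1 SD of each other in each. Summed over the 4 receptors, the level was 56.4, 58.4 and 21.2 CPM in Lama4-/- replicates 1, 2 and 3, against 107.8, 140.2 and 126 CPM in wild type. Hes1 and Hey1 together were at 178 ± 5.38 CPM in Lama4-/- and 166 ± 13.4 CPM in wild type (SD, n = 3 each).

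Shares within a library do not depend on how libraries are scaled against each other. Of the receptor counts per kilobase, Notch2 made up 38.3 ± 8.27% in Lama4-/- and 40.6 ± 9.0% in wild type, Notch3 37.5 ± 4.25% and 40.4 ± 17.8%, and Notch1 16.9 ± 11.3% and 17.8 ± 9.83% (SD, n = 3 each). These shares differed between genotypes by less than the spread within either. Notch4 took 19.7% of the receptor counts per kilobase in Lama4-/- replicate 3 and 1.92% or less in the other libraries. Among the ligands, Jag1 made up 45.8%, 61.5% and 11.7% in Lama4-/- replicates 1, 2 and 3, against 65.8%, 66.1% and 87.4% in wild type replicates 1, 2 and 3, and Dll1 53.5%, 37.8% and 75.7% against 28.6%, 26.3% and 12.1%. Neither gene's groups overlapped. These 2 genes made up most of the ligand counts per kilobase in every library, so their shares mirror each other and are 1 observation. The extremes rest on few reads, with 35 counts of Jag1 in Lama4-/- replicate 3 and 25 of Dll1 in wild type replicate 3. In CPM the groups of Dll1 overlapped. The log2 ratio of Jag1 to Dll1 per kilobase was -0.74 ± 1.75 in Lama4-/- and 1.79 ± 0.92 in wild type (SD, n = 3 each; exact two-sided permutation test, p = 0.1, the smallest that 3 libraries against 3 can give). This ratio was chosen after the values were seen, when the shares of both genes already lay apart. The permutation p was thereby fixed at its smallest value and is no evidence of a difference. Jag1 is the longer transcript, and the gap between the 2 fitted log2 fold changes was -2.10, and -1.72 with the length trend removed.

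**Figure D4:**
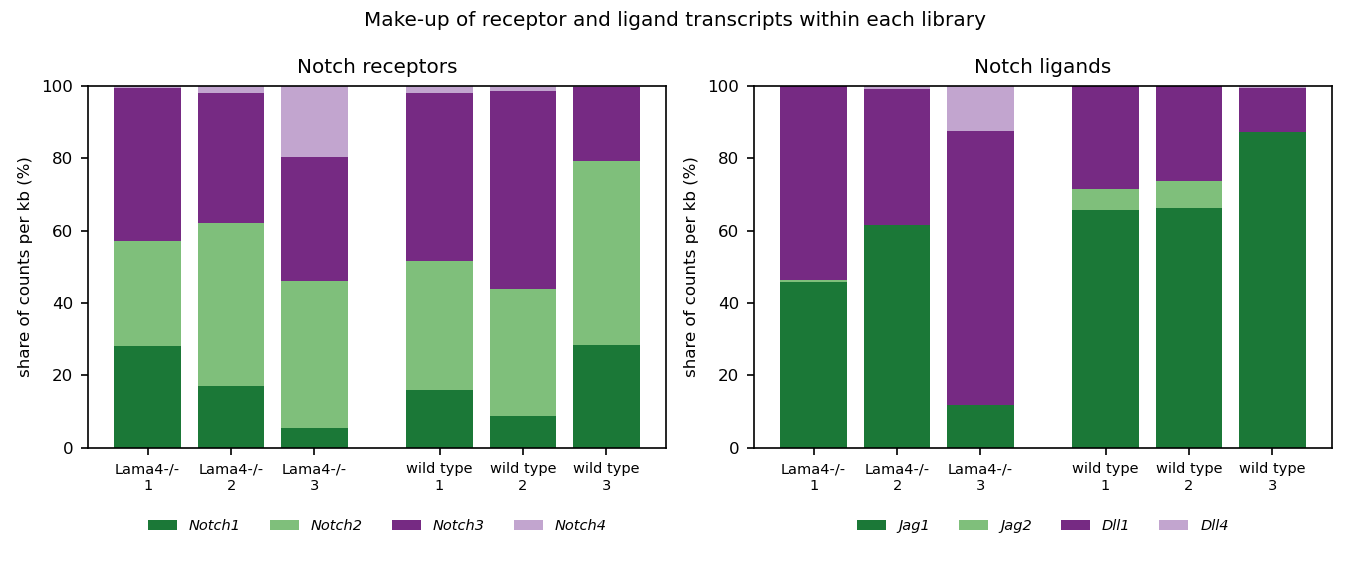
Share of each receptor (left panel) and each ligand (right panel) in the counts per kilobase of its class, in percent, with 1 stacked bar for each Lama4-/- library (left) and each wild type library (right). Jag1 holds 11.7% to 61.5% of ligand counts per kilobase in Lama4-/- and 65.8% to 87.4% in wild type.

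The rest of the pathway was read from a list of 62 genes, of which 59 were in the table and 54 were tested. In the edgeR test 0 passed the adjustment, and an unadjusted p under 0.05 was found for 8 genes lower in Lama4-/- and 1 higher, where 8.34% and 4.45% of all tested genes had one. DESeq2 called 3, all lower, where it called 3.56% of all genes in that direction. The total was 5 without Lama4-/- replicate 1 and 4 without wild type replicate 1. The pathway list was chosen with results of these data known. The median log2 fold change was -0.05, beside -0.04 over all tested genes. The 8 lower genes had transcripts of 5309 to 10231 bases. With the length trend removed, Maml2 alone remained on the lower side at an unadjusted p under 0.05, and Rfng, Furin, Snw1 and Numbl were on the higher side.

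The nuclear complex held 3 of the 8 among its 7 tested genes, which had a median log2 fold change of -1.28; of all tested genes 8.34% were lower at that p. The median was -0.26 once the length trend was taken out, with 1 gene lower and 1 higher. Rbpj, the DNA-binding partner of the Notch intracellular domain, was at 8.04, 5.04 and 5.08 CPM in Lama4-/- replicates 1, 2 and 3, against 15.03, 11.8 and 17.4 CPM in wild type, a log2 fold change of -1.28 (SE 0.44; edgeR adjusted p = 0.309), or -0.71 once the length trend was taken out. The Mastermind coactivator Maml2 was at 1.56, 7.90 and 3.49 against 19.1, 13.01 and 25.2 CPM, a log2 fold change of -2.15 (SE 0.66; edgeR adjusted p = 0.271; DESeq2 adjusted p = 0.0321), or -1.45 once the length trend was taken out. The acetyltransferase Ep300 was at 16.9 ± 7.70 CPM in Lama4-/- and 43.001 ± 11.2 CPM in wild type, with a log2 fold change of -1.35, and -0.24 with the length trend removed. In 4 of the 7 tested genes of the complex, Rbpj, Maml2 and Ep300 among them, every Lama4-/- library lay below every wild type library. Of all tested genes 12% did so. Snw1, a splicing factor that also binds the complex, was at 50.8 ± 11.7 CPM in Lama4-/- and 34.7 ± 9.45 CPM in wild type.

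Among the 10 corepressor genes 2 were lower at an unadjusted p under 0.05, beside 8.34% of all tested genes, and the median log2 fold change was 0.05. Once the length trend was taken out, 0 of them had such a p (edgeR), and the median was 0.19. The Groucho-type corepressor Tle3, a partner of HES proteins and 1 of these, was at 22.1 ± 5.68 CPM in Lama4-/- and 53.1 ± 1.38 CPM in wild type. Its log2 fold change was -1.26 (SE 0.28, edgeR adjusted p = 0.237, DESeq2 adjusted p = 0.0038). It was at -0.30 with the length trend removed. The most abundant corepressors, Ctbp1 and Tle2, were at 164 to 252 and 54.2 to 87.1 CPM in Lama4-/- and at 106 to 202 and 57.3 to 131 CPM in wild type, and their groups overlapped.

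On the side of the ligand-sending cell, Mib1, a ubiquitin ligase that ligands need for their uptake and activity, was at 18.1 ± 8.37 CPM in Lama4-/- and 38.4 ± 7.76 CPM in wild type (log2 fold change -1.09, edgeR adjusted p = 0.349), and its log2 fold change was 0.0052 with the length trend removed. Its relative Mib2 was at 33.3 to 80.7 CPM in Lama4-/- and 33.4 to 50.9 CPM in wild type, and the ligand endocytosis gene Epn2 at 15.6 to 43.3 and 33.7 to 69.3 CPM. Of 4 tested genes of receptor glycosylation, Rfng, a Fringe enzyme that extends sugars on Notch, was the 1 gene of the list that was higher with an unadjusted p under 0.05, at 59.1, 49.3 and 52.2 CPM in Lama4-/- replicates 1, 2 and 3, against 38.1, 36.8 and 23.5 CPM in wild type. Every Lama4-/- library lay above every wild type library, as in 10.3% of all tested genes, and the log2 fold change was 0.71 (SE 0.27; edgeR adjusted p = 0.337), or 0.59 once the length trend was taken out. Poglut1, which adds glucose to Notch, was at 22.4 to 51.4 CPM in Lama4-/- and 30.9 to 44.4 CPM in wild type. Of the 10 tested genes of receptor cleavage 0 had an unadjusted p under 0.05 (edgeR), and their median log2 fold change was 0.010. Furin, which processes the receptor on its way to the surface, was at 84.4 to 103 CPM in Lama4-/- and 50.6 to 120 CPM in wild type, and the gamma-secretase subunit Ncstn at 49.8 to 108 and 50.3 to 119.5 CPM.

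Of the genes that end the signal, the ubiquitin ligase Itch was at 34.1 ± 6.41 CPM in Lama4-/- and 56.6 ± 11.9 CPM in wild type (log2 fold change -0.73, edgeR adjusted p = 0.330, or -0.21 once the length trend was taken out). Dtx3 was at 37.2 to 77.04 and 44.8 to 58.1 CPM. Among the other HES and HEY genes and their relatives, Bhlhe41 was at 22.2 ± 4.95 CPM in Lama4-/- and 38.6 ± 3.91 CPM in wild type (log2 fold change -0.80, edgeR adjusted p = 0.315, or -0.11 once the length trend was taken out), and Bhlhe40, the most abundant, at 873 to 1004 and 695 to 1268 CPM. Heyl, a Notch target of smooth muscle and pericytes, was at 18.1, 31.4 and 4.43 CPM in Lama4-/- replicates 1, 2 and 3, against 48.9, 84.1 and 29.6 CPM in wild type replicates 1, 2 and 3. The groups of Heyl overlapped, and its log2 fold change was -1.59 (SE 0.69, edgeR adjusted p = 0.396), or -1.26 once the length trend was taken out. In Heyl, as in Notch3 and Jag1, the highest library was wild type replicate 2 and the lowest Lama4-/- replicate 3. Other listed ligand-like genes were low: Dner was at 0 to 12.2 CPM in Lama4-/- and 2.92 to 18.2 CPM in wild type, and Mfap5 at 7.26 to 8.04 and 2.91 to 10.5 CPM. The 5 listed genes that did not pass the filter were Nrarp, Dtx1, Hes3, Hes5 and Hes7. The feedback inhibitor Nrarp had 27, 3 and 0 counts in Lama4-/- replicates 1, 2 and 3 and 2, 3 and 0 in wild type, and the Deltex gene Dtx1 had 0, 0 and 75 counts in Lama4-/- and 0, 3 and 0 in wild type, so each was carried by 1 library.

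**Figure D5:**
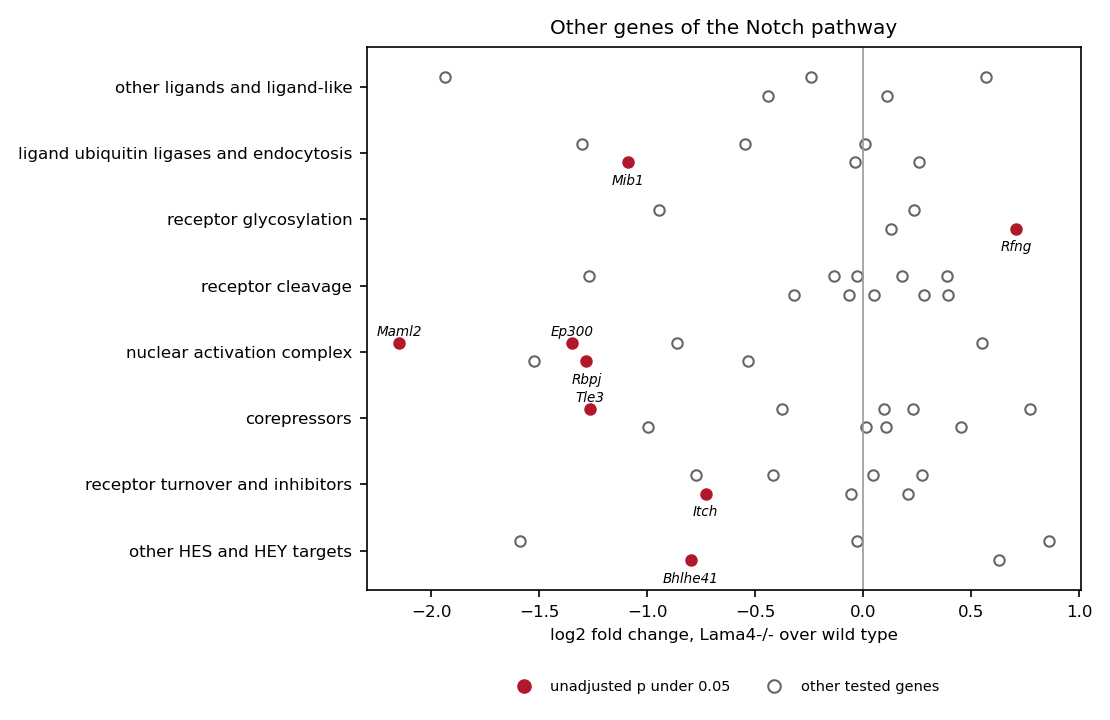
Log2 fold change of Lama4-/- over wild type for the tested pathway genes that are not among the 10 members, by their role, with 1 gene not drawn. Filled points are genes with an unadjusted p under 0.05 in the edgeR test, of which Rfng was higher and the others drawn were lower, and open points are the other tested genes.

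Across 10649 genes with a mean of at least 5 CPM, the profiles most like that of Notch2 over the 6 libraries, by the root mean square difference of centred log2 CPM, were those of Oxsr1 (0.12), Cnrip1 (0.16) and Peg3 (0.18). Those most like Jag1 were Yes1 (0.19), Dcp1a (0.23) and Sorbs2 (0.25). Oxsr1 was at 5.70, 8.20 and 3.12 CPM in Lama4-/- replicates 1, 2 and 3 and at 14.4, 17.5 and 17.7 CPM in wild type.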

How the data were processed

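Per the labels' protocols, cDNA of the sorted cells was made with the SMART-Seq v4 low-input kit, which does not mark strand, and read from a single end. STAR 2.6.1d, featureCounts and Subread, DESeq2, and for quality FastQC 0.11.8 and MultiQC 1.7, are named with the builds GRCm38 and mm10 in the submitters' processing notes; settings were not given in the sources used. The block of the deposited table headed normalized holds whole numbers in 100% of cells and was used as the authors' raw counts. The block headed raw is the deposited signal, those counts times 1 constant a library (0.708 to 1.98), and entered no test. The authors' deposited DESeq2 columns hold a mean signal, a shrunken log2 fold change with its error, a Wald score, a p-value and an adjusted p-value, per the file headers.

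Genes were filtered with filterByExpr, scaled with TMM and tested with the robust quasi-likelihood test of edgeR 4.0.16 in R 4.3.3, with genotype as the only term (3 libraries each) and p-values adjusted by Benjamini-Hochberg over every tested gene at 0.05. Means are ± SD. GENCODE M21 (GRCm38) gave positions and transcript lengths for 25458 genes. To remove the length trend, each library's log2 deviation was smoothed on log10 length by lowess (span 0.3) and the curve entered as an offset. Profiles were compared as log2 CPM with a prior count of 2. Alternatives are in the closing section and include DESeq2 1.42.0 and limma 3.58.1. The procedures were tested on simulated data. Libraries of 1 genotype differed by more than counting noise, with at least 42.6 for the chi-square per gene.

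The members, lists and alternatives were chosen with earlier results of these data known. Genes are named by rule: all members, Lama4, pathway genes at an unadjusted p under 0.05, the 2 most abundant of each list, the sort genes, and the 3 profiles nearest the most abundant receptor and ligand. Of the pathway genes taken by this rule, 1 is not reported here; the list's counts include it. Numbl, the 5 pathway genes below the filter and the genes that overlap members lie outside the rule and were named after their values were seen. The same holds for the endothelial markers Cdh5, Kdr, Tek, Tie1, Flt4 and Cldn5 and for the osteoblast gene Runx2. The abundant endothelial and haematopoietic leaders Esam, Erg, Elane and Mpo were at 13.8 CPM or less in every library, and the 6 haematopoietic markers in the table summed to 2.18 to 30.5 CPM in Lama4-/- and 3.14 to 10.8 CPM in wild type. The stromal and osteoblast leaders Adipoq and Bglap were at 487 to 840 and 1879 to 6747 CPM in Lama4-/- and 399.9 to 967 and 1641 to 3951 CPM in wild type. Of the 7 osteoblast genes, 3 were lower and 4 higher in Lama4-/-. Only Runx2 had an unadjusted p under 0.05 (edgeR), on the lower side, where 8.34% of all tested genes were. It was at 68.8 ± 8.55 CPM in Lama4-/- and 168 ± 37.5 CPM in wild type. Its log2 fold change was -1.29 (edgeR adjusted p = 0.237, DESeq2 adjusted p = 0.00034), or -0.55 with the length trend removed.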

Additional observations from a re-analysis of the deposited data

How the results depend on the processing

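None of the tested members passed an adjusted p of 0.05 in any edgeR or limma alternative, and 1, Notch2, did with DESeq2. At an unadjusted p under 0.05 there were 2 members in the fit reported, 0 with the length trend removed and between 1 and 3 with each library left out. The pathway list had 9 such genes, 5 with the length trend removed (4 of them higher) and 4 to 11 with a library left out. Among all genes the count past the adjusted threshold, 1 in the fit reported, was 0 with upper-quartile scaling, limma voom (2352 at an unadjusted p under 0.05), edgeR without robust moderation or the length trend removed, 12 without a filter, 741 with DESeq2, and 0 to 1 with a library left out. The adjusted p of Lama4 was 0.0550 with upper-quartile scaling, 0.160 with limma voom, 0.0507 without robust moderation, 0.0751 with the length trend removed, and 0.0482 to 0.593 with a library left out. Numbers shared by replicates do not mark a pairing in the labels, and deviations of same-numbered libraries correlated at 0.040, 0.13 and 0.054; each library correlated best with its own number, a hint from the data only. With the replicate block 0 genes passed, the adjusted p of Lama4 was 0.3005, and 3 members had an unadjusted p under 0.05. Directions turned in members near 0: Notch4 was at -0.38 with limma voom and -0.40 with the block, and between -1.21 and 0.85 with a library left out (-0.16 without wild type replicate 3); Hes1 was at -0.19 with the length trend removed; Hey1 at -0.0027 with it removed and between -0.069 and 0.37 with a library left out (-0.00022 without Lama4-/- replicate 1). Mib1 turned to 0.0052 with the length trend removed. The causes were not tested. Depth limits Notch4, Jag2 and Dll4, which had under 50 counts in every library.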

Other observations

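Lama4-/- replicate 3 had the lowest Notch1, Notch2, Notch3 and Jag1 levels of all 6 libraries and the highest Hes1, Notch4 and Dll4. The ligand-like gene Dlk1, picked after its values were seen, had 0, 9 and 55 counts in Lama4-/- replicates 1, 2 and 3, against 10, 1 and 28 counts in wild type replicates 1, 2 and 3. Without this library the log2 fold change was -1.24 in Notch2, -1.19 in Notch3 and -0.98 in Jag1.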
